A study of Mus musculus and Homo sapiens with 14 samples.

Results

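The 10 genes described here build and reshape the mitochondrial network: the fusion genes Mfn1, Mfn2 and Opa1, the fission genes Dnm1l, Fis1 and Mff, and the biogenesis genes Tfam, Nrf1, Ppargc1a and Ppargc1b. They were taken by symbol, 10 of the 27179 entries of the mouse count table and the same 10 symbols in capitals of the 28395 entries of the human one. The 14 RNA sequencing libraries fall into 8 groups, in a study of the transcription factor IRF4 in plasma cells, the antibody-secreting cells of the B lineage. Splenic plasma cells of 2 genotypes, Irf4 flox/- and Irf4 flox/+, came from donor bone marrow placed in congenically marked hosts together with μMT bone marrow, which makes no mature B cells. Hosts of marrow of either genotype were given tamoxifen on days 1, 2, 7 and 8, and donor plasma cells were sorted on day 14. Both groups of donor cells therefore carried a floxed allele and both were treated. The labels name neither the promoter that drove the recombinase nor the number or age of the mice. MPC-11, a mouse plasmacytoma line, and MM.1S, a human myeloma line, had received Cas9 with a guide RNA against IRF4 (labelled Irf4 -/-) or with an empty vector (labelled WT), and were sorted on day 3 with doxycycline given to both. Each of these 6 groups had 2 libraries. Wild-type splenic follicular B cells (FoB) and wild-type bone marrow plasma cells (BMPC) had 1 library each, and the mouse libraries were labelled C57BL/6. Whether that strain label holds for the MPC-11 line was not checked.

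Mitochondria fuse and divide continuously. The mitofusins MFN1 and MFN2 join the outer membranes of neighbouring mitochondria and OPA1 joins the inner ones, while the GTPase DRP1, made from Dnm1l, is drawn to the outer membrane by the receptor MFF, with FIS1 as a further outer membrane receptor, and constricts it. New mitochondrial mass needs TFAM, which packages and transcribes mitochondrial DNA (mtDNA), and nuclear genes switched on by the transcription factor NRF1 with the coactivators PGC-1α (Ppargc1a) and PGC-1β (Ppargc1b). Plasma cells depend on mitochondrial respiration to sustain antibody secretion.

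The promoters were searched for letters bound by NRF1, by IRF proteins alone or with an ETS partner, and by GABP. The cyclic AMP response element was searched as well. Windows of 250 bases before to 50 after each start were read from RefSeq (GRCm38.p6), which held 15 windows for 9 of the 10 mouse genes, and both strands were searched. The NRF1 motif, GCGC and TGCGC around 1 free base, is the site of the factor that Nrf1 itself encodes. It lay in 1 of the 9 genes, Opa1, and in 5.19% of all 27025 genes with a window. The interferon-stimulated response element, 2 copies of GAAA around 2 free bases and bound by IRF proteins, was in none of the 9 and in 3.99% of all genes. The composite element, GGAA and GAAA around 2 free bases, is bound by IRF4 with an ETS partner and shares its GAAA end with the former motif. It was in Mfn1 and in 3.16% of all genes. The ETS site CCGGAAG, bound by the biogenesis factor GABP, was in Mfn1, Dnm1l, Fis1 and Tfam, 4 of 9, and in 9.93% of all genes. By window it was in 5 of 15, beside 8.86% of all windows. The shares of all genes were not limited to expressed genes, and no difference in share was tested. The cyclic AMP response element TGACGTCA was in none of the 9 and in 2.03% of all. A match describes the letters of the window and shows no binding. One stretch is printed for each of the 3 motifs found, all on the plus strand, 5′ to 3′, with the motif in capitals. The NRF1 motif of Opa1 begins 59 bases before the start at 29579334 and reads the same on both strands (chr16:29579195-29579284). An earlier RefSeq start of Opa1, at 29579281, falls inside this motif. The composite element of Mfn1 begins 179 bases before the start at 32529482 (chr3:32529253-32529342), with earlier annotated starts at 32529443 and 32529465. The ETS site of Fis1 begins 18 bases before the start at 136953275 (chr5:136953185-136953274).
Opa1: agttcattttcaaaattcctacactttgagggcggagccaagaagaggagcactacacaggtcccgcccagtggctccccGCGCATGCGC
Mfn1: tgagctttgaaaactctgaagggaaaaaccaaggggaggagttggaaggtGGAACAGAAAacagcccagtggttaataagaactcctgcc
Fis1: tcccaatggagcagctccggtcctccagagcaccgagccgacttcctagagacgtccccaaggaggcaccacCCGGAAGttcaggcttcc

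Library totals ran from 18680882 to 26993510 counts in the mouse and from 19309165 to 21564060 in the human line. Immunoglobulin genes took 72.2% and 73.4% of the counts in flox/+, 56.3% and 52.8% in flox/-, 69.8% in BMPC, 16.7% to 32.8% in MPC-11 and 3.24% in FoB. Levels are therefore given as CPM, counts scaled to library size with TMM factors, which sets the bulk of genes level between libraries. Scaled to library size alone, the median log2 fold change of all genes was 0.98 in place of 0.09 for flox/- over flox/+, -0.18 in place of -0.02 in MPC-11 and 1.86 in place of -0.02 for MPC-11 over splenic cells, so each change below is relative to the other genes. The targeted transcript stood at 172 and 89.2 CPM with the guide against 296 and 302 without it in MPC-11, and at 141 and 190 against 494 and 433 in MM.1S. In the splenic libraries labelled flox/- Irf4 was not lower, with 133 and 159 CPM against 179 and 86.9, and counts per gene do not show whether the floxed exons were lost. All 6 plasma cell markers had reads in each plasma cell and MPC-11 library, and B cell markers summed to 4394 CPM in FoB. The 2 flox/+ columns of the count table share a name and are called a and b. No label says that replicates came from separate animals or cultures, so p-values measure only the spread between these libraries.

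Among the 3 fusion genes, Opa1 separated MPC-11 from the primary cells, while the mitofusins varied as much within groups as between them. Opa1 (Entrez 74143; mm10 chromosome 16, 29579334 to 29654884, 30 exonic blocks) stood at 41.0 and 40.7 CPM in MPC-11 with the empty vector and at 42.3 and 41.0 with the guide. It stood at 25.6 in BMPC, 22.5 in FoB, 21.9 and 22.3 in flox/- and 17.2 and 17.7 in flox/+ splenic plasma cells, so every MPC-11 library lay above every primary one. The 2 MPC-11 groups overlapped on this scale, and FoB, a single library, lay next to the flox/- pair. The biogenesis gene Ppargc1b also separated MPC-11 from the primary libraries, at 11.9 CPM or more against 10.1 or less. The share of all genes that separate in this way was not counted. Mfn2 (Entrez 170731) was highest in BMPC and FoB, at 64.2 and 63.2 CPM, and ranged from 25.9 to 57.8 in splenic plasma cells and from 10.3 to 33.4 in MPC-11. Its splenic groups overlapped each other, and so did its MPC-11 groups. Mfn1 (Entrez 67414; mm10 chromosome 3, 32529465 to 32579239) spanned 4.1 CPM in flox/+ library b to 34.9 CPM in MPC-11 empty vector library 2, with 21.8 in flox/+ library a and 13.6 in empty vector library 1. The 4 groups of 2 could therefore not be put in an order beyond their spread.

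The fission genes had the most even levels across cell types. Fis1 (Entrez 66437; mm10 chromosome 5, 136953275 to 136966234) stood at 203 CPM in BMPC, 155 in FoB, 151 and 218 in flox/+, 155 and 127 in flox/-, 174 and 89.5 in MPC-11 with the empty vector and 94.9 and 123 with the guide. All neighbouring groups of 2 overlapped in that order. Mff (Entrez 75734) ranged from 47.8 to 83.8 CPM over the 10 mouse libraries, both extremes lying in groups whose other library was at 81.3 and 58.9. Dnm1l (Entrez 74006) ranged from 8.20 CPM in flox/+ library b to 29.1 in empty vector library 2, with 17.1 and 17.4 in flox/- and 11.1 in BMPC. Dnm1l and Mff overlap annotated transcripts on the opposite strand, Gm49521 over 4.67% and C430014B12Rik over 2.00% of their exonic bases, and the library kit is not stated to keep strand, so those reads cannot be told apart.

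Of the biogenesis genes, Tfam and Ppargc1a were highest in follicular B cells. Tfam (Entrez 21780; mm10 chromosome 10, 71225464 to 71238280) stood at 46.9 CPM in FoB against 12.7 to 27.0 in the other 9 mouse libraries. Nrf1 (Entrez 18181; mm10 chromosome 6, 30047988 to 30153458) was also highest in FoB at 68.3 CPM, followed by 55.7 and 55.1 in flox/-, 42.9 in BMPC and 35.7 and 21.5 in flox/+. MPC-11 overlapped with flox/+ for Nrf1, with 29.5 and 15.4 CPM with the empty vector and 27.8 and 15.6 with the guide. Ppargc1b (Entrez 170826) stood at 11.9 to 16.6 CPM in the 4 MPC-11 libraries and at 4.30 to 6.67 in FoB, BMPC and both flox/- libraries. In flox/+ it had 110 reads (10.1 CPM) in library a and 0 reads in library b, where 3 counts, the floor used for a count of 0, correspond to 0.256 CPM. Ppargc1a (Entrez 19017) had 155 reads (3.94 CPM) in FoB and 0 reads in each of the other 9 mouse libraries. With the floor of 3 counts, FoB was at least 14.6-fold higher than BMPC. Such floors and intervals cover counting error only.

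**Figure D1:**
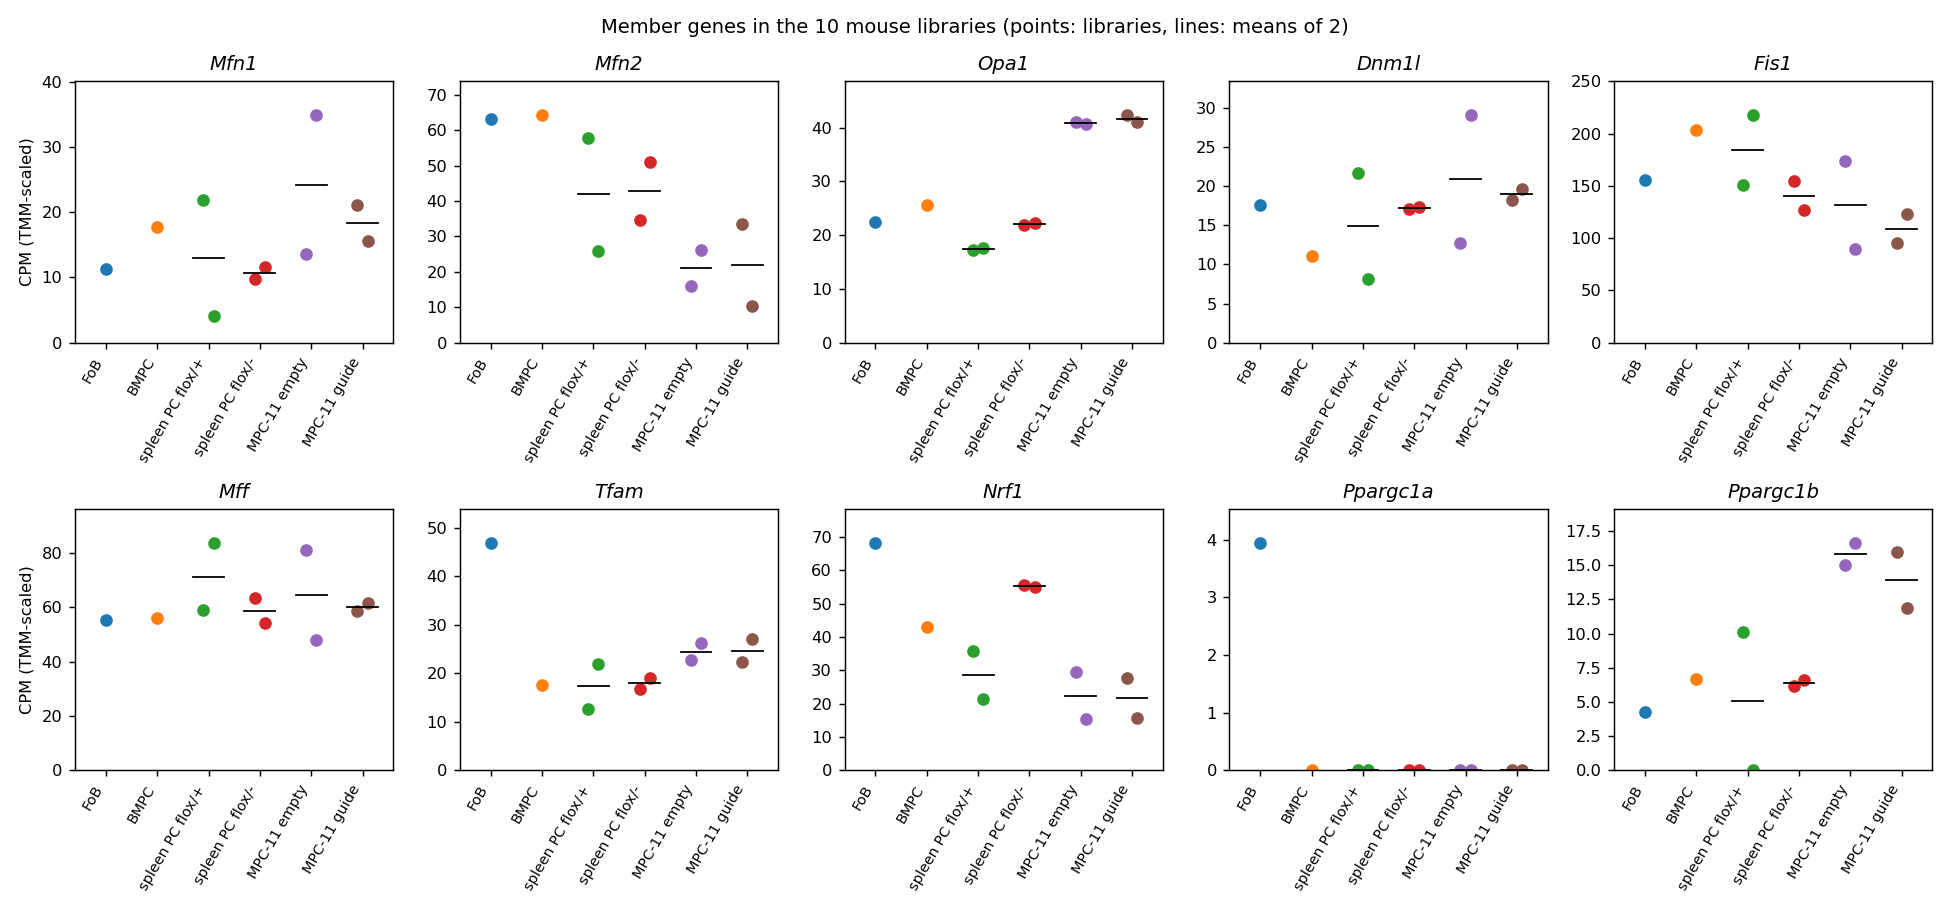
Level of each of the 10 genes in the 10 mouse libraries, in TMM-scaled CPM on linear axes that start at 0; points are libraries and short lines are means of 2. Opa1 stood at 40.7 CPM or more in all 4 MPC-11 libraries and at 25.6 CPM or less in the 6 primary ones. For Ppargc1b these limits were 11.9 and 10.1 CPM, and Ppargc1a had reads in FoB alone.

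The single libraries of BMPC and FoB were set against each other without a test. Tfam stood at 17.7 CPM in BMPC and 46.9 in FoB, a ratio of 0.377 (95% counting interval 0.324 to 0.437). It was the one gene with reads in both libraries that differed by 2-fold or more, a size reached downward by 19.3% and upward by 22.8% of 11017 genes. Nrf1 and Dnm1l each had a ratio of 0.629, and Mfn1 and Ppargc1b had ratios of 1.56 and 1.55. Fis1 had a ratio of 1.31, while Mfn2, Mff and Opa1 lay between 1.02 and 1.14. These 2 libraries differ in cell type and tissue at once, and no replicate of either was analysed. Neutrophil markers summed to 459 CPM in BMPC and 9.56 in FoB, red cell markers to 5.14 and 216, and macrophage markers to 149 and 83.1, and their part in these ratios was not tested.

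Levels of different genes can be set side by side only per length, for which the authors' log2 FPKM values were used. Fis1 had the highest log2 FPKM of the 10 genes in all 8 groups, from 7.58 ± 0.33 (SD, n = 2) in MPC-11 with the guide to 8.34 in BMPC, and 6.89 ± 0.04 and 7.25 ± 0.02 in MM.1S without and with the guide. Mff was second in every mouse group, at 5.81 to 6.205, and MFN2 second in MM.1S at 5.32 ± 0.06 and 5.22 ± 0.03. Next came Mfn2 in FoB, BMPC and flox/+, Nrf1 in flox/- and Opa1 in both MPC-11 groups. In flox/-, Nrf1 at 4.34 ± 0.01 and Mfn2 at 4.21 ± 0.44 did not differ beyond their spread. Ppargc1a was lowest in every mouse group, and PPARGC1B had the lowest mean in MM.1S at -0.23 ± 0.12 and 0.72 ± 0.06. With the guide, PPARGC1A at 0.92 ± 0.56 overlapped PPARGC1B. The median of all genes lay between 2.35 and 2.48 in each library, so Fis1, Mff, Opa1, Tfam and Nrf1 were above it in all 14.

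The splenic comparison set the 2 Irf4 genotypes side by side, with Irf4 itself not lower in the libraries labelled flox/-. No gene of the 10 passed the test between flox/- and flox/+, and the clearest separation was in Nrf1. Nrf1 stood at 34.6 and 34.6 CPM in flox/- against 22.7 and 13.3 in flox/+, now scaled within these 4 libraries, and both flox/- libraries lay above both flox/+ ones. Its log2 fold change was 0.94 ± 0.40 (SE, 2 libraries a group; adjusted p = 0.434 in edgeR and 0.358 in DESeq2). Opa1 was at 13.7 and 14.0 CPM versus 10.93 and 10.96, again without overlap, with a log2 fold change of 0.34 ± 0.40 (edgeR adjusted p = 0.848). Of 9 genes tested, these 2 did not overlap between groups on the higher side and 0 on the lower side, while over all 11887 genes tested 25.7% and 18.4% did not. EdgeR called 0% of all genes in either direction. At an unadjusted p under 0.05 there were 1026 genes higher (8.63%) and 458 lower (3.85%), none of them among the 9. DESeq2 called 3.64% of all genes higher and 1.70% lower, also none of the 9.

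The other fusion and fission genes of the spleen were spread widely by the flox/+ pair. Mfn1 stood at 6.06 and 7.27 CPM in flox/- against 13.9 and 2.54 in flox/+, a log2 fold change of -0.30 ± 0.86. Dnm1l was at 10.6 and 10.9 versus 13.8 and 5.08 (0.19 ± 0.61), and Mfn2 at 21.5 and 32.0 against 36.8 and 16.0 (0.02 ± 0.51). In these 3 genes both flox/- libraries lay between the 2 flox/+ libraries. Fis1 and Mff had log2 fold changes of -0.39 ± 0.33 and -0.28 ± 0.33, and Tfam had 0.05 ± 0.48, all with overlapping groups. Ppargc1b, at 3.83 and 4.17 CPM against 6.43 and 0, had a log2 fold change of 0.32 ± 1.86. Without flox/+ library a the log2 fold change of Mfn1 was 1.39, and without library b that of Ppargc1b was -0.69. Of the 9, 6 had a log2 fold change above 0, as had 54.3% of all genes, and the median was 0.05, beside 0.09 over all.

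Markers of other cells differed between the splenic groups. All 8 macrophage markers had reads in each of the 4 libraries and summed to 7127 and 603 CPM in flox/- against 484 and 156 in flox/+. T cell markers summed to 98.7 and 243 against 8.62 and 13.2, with 5 and 6 of 6 detected in flox/-. Of the NK cell markers 3 of 4 were detected in both flox/- libraries, at 28.1 and 86.5 CPM, and 0 in both flox/+ libraries. Red cell markers summed to 534 and 30.8 against 28.9 and 3.502, B cell markers to 359 and 580 against 220 and 239, and plasma cell markers to 35823 and 32986 against 78128 and 97924. The macrophage, T cell, NK cell, red cell and B cell sums were higher in both flox/- libraries, as were Nrf1 and Opa1, and the part of other cells in the Nrf1 and Opa1 values was not tested. In bulk libraries, fewer cells of a type and less RNA per cell cannot be told apart.

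**Figure D2:**
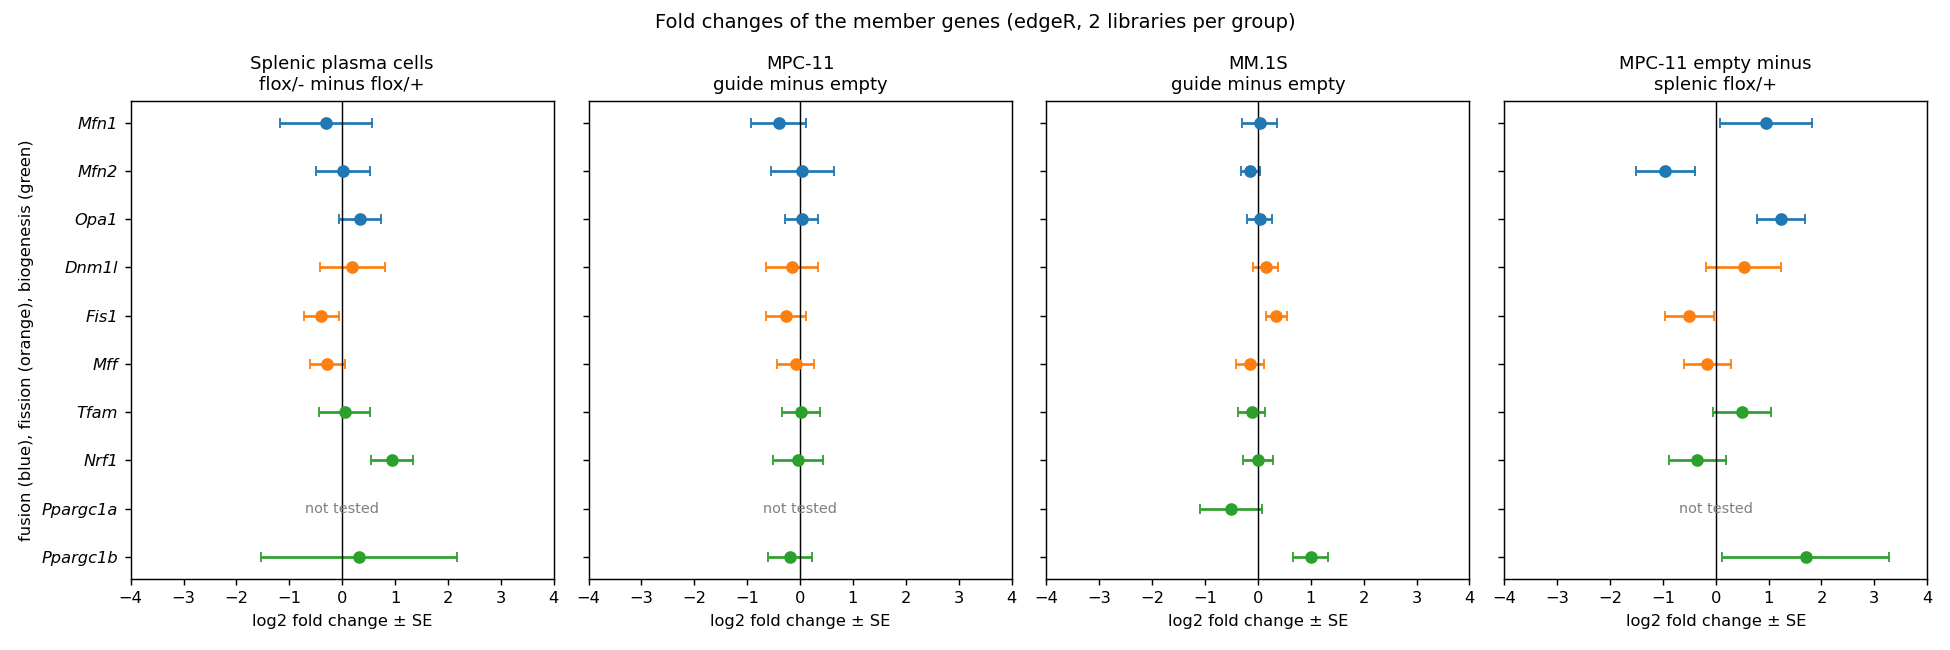
Log2 fold change (x axis) with its standard error for each gene in the 4 comparisons, from edgeR with 2 libraries per group; blue marks fusion, orange fission and green biogenesis genes. In the human panel the points are the human genes of the same symbol. The guide RNA comparisons lie between -0.52 and 0.35 except PPARGC1B in MM.1S at 1.00, and Opa1 is at 1.23 in MPC-11 over splenic cells.

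In MPC-11 the guide RNA against Irf4 left all 9 genes tested without a call, and the values centred on 0. Opa1 was the most even, at 67.8 and 66.8 CPM under the guide versus 64.7 and 66.7 under the empty vector (log2 fold change 0.03 ± 0.31). It was the single gene whose groups did not overlap on this scale, 1 of 9 on the higher side and 0 on the lower, beside 16.9% and 16.6% of all 10670 genes tested. Tfam was at 35.6 and 44.1 CPM versus 35.7 and 43.0, and Nrf1 at 44.4 and 25.5 against 46.5 and 25.2, so the 2 libraries of a group differed more than the groups did. The log2 fold changes of these 2 genes were 0.02 ± 0.36 and -0.04 ± 0.47.

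The mitofusins and fission genes of MPC-11 overlapped between the groups, with a wide spread within them. Mfn1 was at 33.9 and 25.4 CPM versus 21.4 and 57.1 (log2 fold change -0.41 ± 0.52), and Mfn2 at 53.5 and 16.9 against 25.3 and 43.0 (0.04 ± 0.59). Dnm1l had a log2 fold change of -0.15 ± 0.49, Fis1 of -0.26 ± 0.38, Mff of -0.08 ± 0.35 and Ppargc1b of -0.18 ± 0.42. Every edgeR adjusted p of the 9 was 0.9995, and DESeq2 called none. None of the 9 had an unadjusted p under 0.05, which 3.49% of all genes had on the higher and 2.56% on the lower side. EdgeR called 0.0187% of all genes higher and 0% lower, and DESeq2 1.03% and 0.459%. Of the 9, 3 had a log2 fold change above 0, beside 48.5% of all genes, and the median was -0.08, beside -0.02. Macrophage and NK cell markers had 0 reads in all 4 MPC-11 libraries.

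MM.1S allowed all 10 genes to be tested, and PPARGC1B differed most. It stood at 18.5 and 19.6 CPM under the guide versus 10.7 and 8.34 under the empty vector, and the groups did not overlap. Its log2 fold change was 1.00 ± 0.33 (edgeR adjusted p = 0.379, DESeq2 adjusted p = 0.306), which did not pass. FIS1 was at 112 and 113 CPM versus 85.8 and 90.3, which gave a log2 difference of 0.35 ± 0.20 (edgeR adjusted p = 0.663). MFN2 was at 180 and 180 versus 200 and 199, which gave a log2 difference of -0.15 ± 0.18 (edgeR adjusted p = 0.885). FIS1 and PPARGC1B were thus 2 of 10 without overlap on the higher side and MFN2 1 of 10 on the lower side, against 22.4% and 18.9% of all 12696 genes tested.

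PPARGC1A, the coactivator without reads in mouse plasma cells, was measured in every MM.1S library. It stood at 21.4 and 12.3 CPM under the guide versus 37.1 and 11.1 under the empty vector (log2 fold change -0.52 ± 0.58). OPA1 was at 91.1 and 125 CPM versus 101 and 110 (0.04 ± 0.24), and DNM1L at 66.2 and 87.8 against 70.5 and 68.0 (0.15 ± 0.24). MFN1, MFF, TFAM and NRF1 had log2 fold changes of 0.04 ± 0.33, -0.15 ± 0.27, -0.12 ± 0.26 and -0.00 ± 0.28, all with overlapping groups. EdgeR called 0 of the 10, beside 0% of all genes higher and 0.00788% lower, and 1 of the 10, PPARGC1B, had an unadjusted p under 0.05, beside 5.42% of all genes higher and 4.58% lower. DESeq2 called 1.54% of all genes higher and 1.41% lower and none of the 10. Of the 10, 5 had a log2 fold change above 0, beside 50.7% of all genes, and the median was 0.02, beside 0.01.

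**Figure D3:**
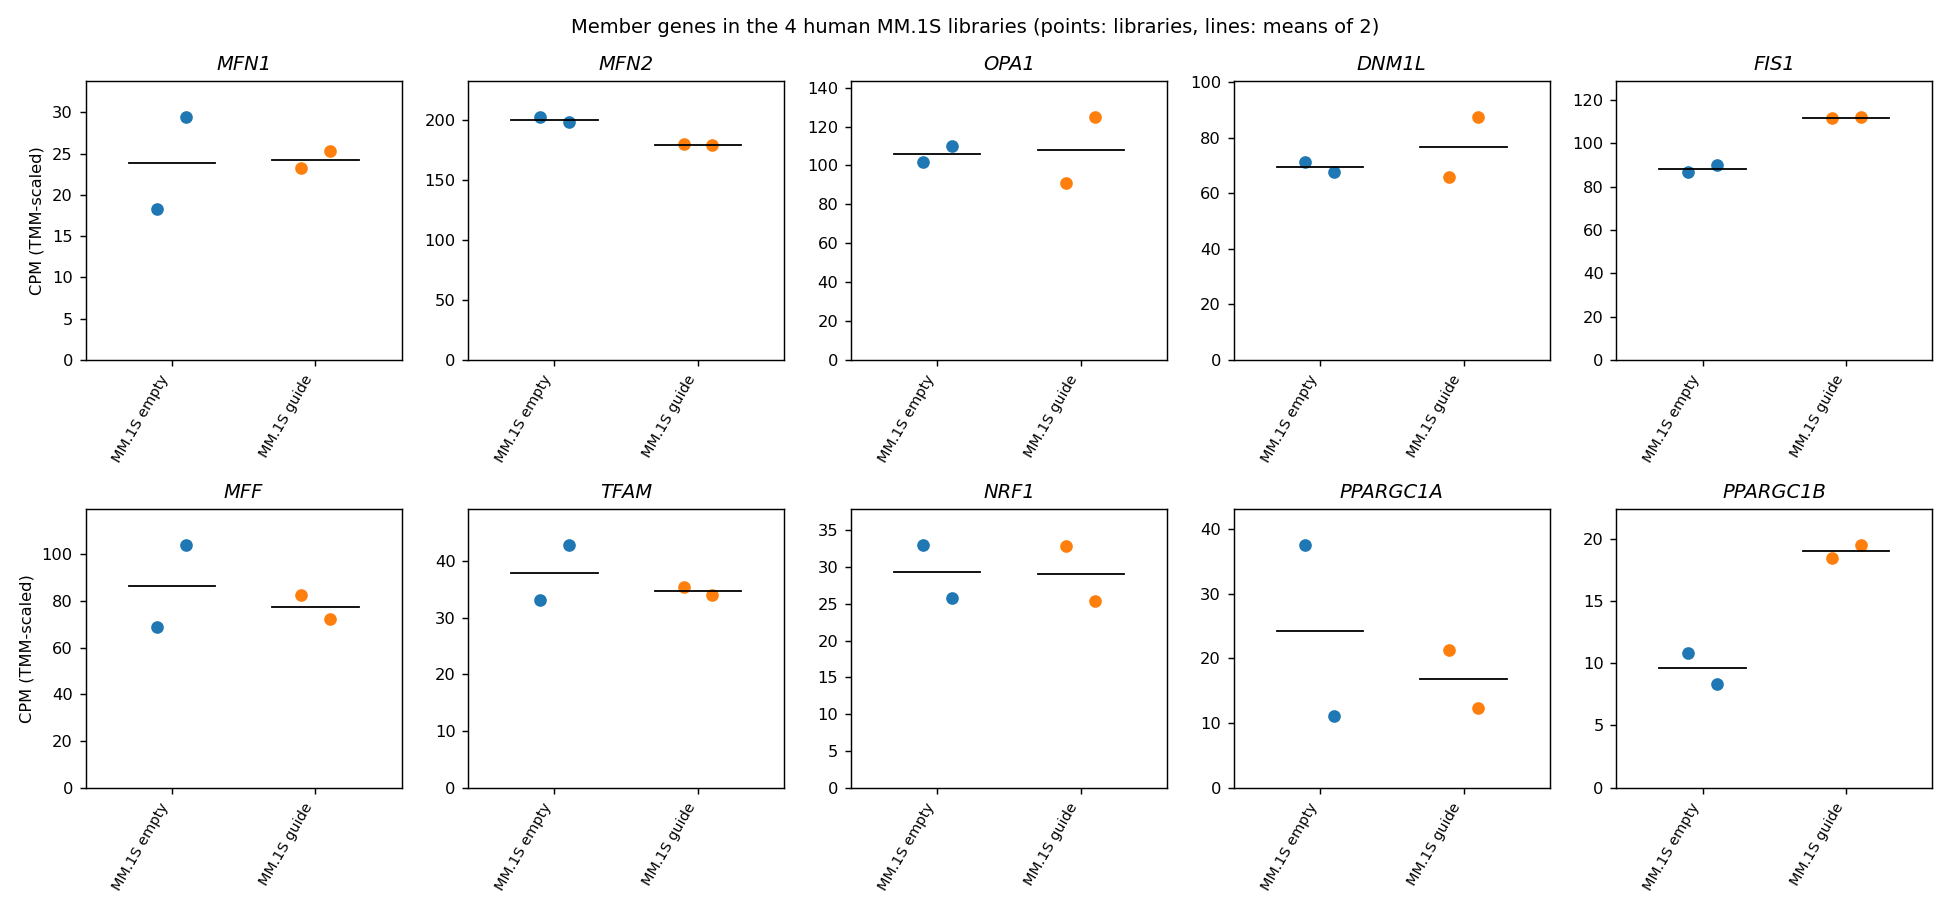
Level of each gene in the 4 MM.1S libraries, in TMM-scaled CPM on linear axes that start at 0; points are libraries and lines are means of 2. The groups stand apart for MFN2, FIS1 and PPARGC1B, and the 2 empty vector libraries are far apart for PPARGC1A.

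The effect of the genotype in the spleen was compared with that of the guide in MPC-11 by an interaction term over 8 libraries. The largest difference among the 9 genes tested was that of Nrf1, 0.99 ± 0.67 on the log2 scale, spleen minus MPC-11 (edgeR adjusted p = 0.9999). EdgeR called 0% of 12993 genes and DESeq2 1.39%, none of the 9 tested here by either tool. At an unadjusted p under 0.05 edgeR had 807 genes, 6.21% of all, and none of the 9. The human line is a separate table and was not tested against the mouse groups.

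MPC-11 with the empty vector was then set against flox/+ splenic plasma cells, a comparison of a tumour line with primary cells. It shares its flox/+ libraries with the splenic comparison and its MPC-11 libraries with the guide comparison. Line, culture, vector and any strain difference behind the shared label cannot be told apart in it. Nor can the floxed allele of the splenic cells, doxycycline (given to the line) and tamoxifen (given to the hosts of the splenic cells). Scaled over all mouse libraries, Irf4 stood at 296 and 302 CPM in the line against 179 and 86.9. Macrophage markers summed to 0 CPM in both line libraries against 484 and 156, and B cell markers to 1.01 and 0.368 against 220 and 239. Their part in the differences was not tested. Opa1 was higher in the line: 35.4 and 37.0 CPM against 14.7 and 16.1, without overlap. The log2 fold change was 1.23 ± 0.45 (edgeR adjusted p = 0.0833). This missed the threshold in edgeR and passed in DESeq2 (adjusted p = 0.0254) and in edgeR with the spread estimated over all groups of 2 (adjusted p = 0.0236). It missed it in limma on the authors' log2 FPKM (adjusted p = 0.132) and in edgeR without each library in turn (adjusted p from 0.163 to 0.254). For the same gene the log2 fold change was 0.34 in the splenic and 0.03 in the MPC-11 comparison.

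EdgeR called 0 of the 9 genes tested in the line against the spleen, beside 12% of all 11465 genes higher and 15.6% lower. One of the 9, Opa1, had an unadjusted p under 0.05, as had 18% of all genes on the higher side and 20.5% on the lower, and DESeq2 called 1 of 9 higher and 0 lower, beside 14.6% and 19.5% of all genes. Ppargc1b, at 12.97 and 15.1 CPM against 8.65 and 0, was the other gene without overlap on the higher side, where 33% of all genes stood, and 0 of the 9 stood on the lower side, beside 33.5%. Its log2 fold change of 1.70 ± 1.59 was 0.71 without flox/+ library b, and without library a edgeR called it (adjusted p = 0.00197) against a single library with 0 reads. Mfn2 was at 13.8 and 23.8 CPM versus 49.6 and 23.5 (log2 fold change -0.96 ± 0.56), and Mfn1 at 11.7 and 31.7 against 18.7 and 3.72, a log2 fold change of 0.95 ± 0.87. Dnm1l, Fis1, Mff, Tfam and Nrf1 had log2 fold changes of 0.53, -0.50, -0.16, 0.49 and -0.35 with overlapping groups. Of the 9, 5 had a log2 fold change above 0, beside 49.5% of all genes, and the median was 0.49, beside -0.02. Scaled to library size alone, all 9 log2 fold changes were above 0, as were 82.1% of those of all genes, and relative to the median gene Mfn2, Fis1, Mff and Nrf1 stayed below 0.

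Another 50 genes of the same processes were followed beside these: partners of fission, inner membrane and OPA1 processing, outer membrane turnover and mitophagy, mtDNA transcription and replication, and nuclear regulators of biogenesis. In MPC-11 against flox/+ splenic cells 47 of them were tested. Of these, 33 had a log2 fold change above 0 and 14 below, beside 49.5% of all genes above 0. The median was 0.35 beside -0.02, which is the same with a floor of 3 counts in place of 0 for Mtfr2 and Apool. EdgeR called 6 higher and 3 lower, beside 12% and 15.6% of all genes, so the share called higher was near that of all genes. DESeq2 called 10 higher and 4 lower, beside 14.6% and 19.5% of all genes. These calls include Mtfr2 and Apool, which had 0 reads in one group and passed the filter through the other alone. Of the 10 inner membrane genes edgeR called 2 higher and 1 lower, and the cristae genes Immt, Chchd3 and Chchd6 had log2 fold changes of 0.35, -0.04 and 0.17. Phb2, a prohibitin that holds OPA1 and its proteases in place, was at 243 and 174 CPM versus 57.1 and 42.7 (log2 fold change 2.06 ± 0.41). Its partner Stoml2 was at 143 and 94.5 versus 34.9 and 36.3 (1.74 ± 0.41). Apool, a subunit of the cristae organising complex, had 0 reads in both MPC-11 libraries and 7.32 and 11.3 CPM in flox/+. With a floor of 3 counts over the MPC-11 group in place of 0, it was 230.3-fold lower in the line.

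The called mitophagy genes went in opposite directions. Bnip3, a receptor induced by low oxygen, stood at 140 and 59.3 CPM in the line against 4.09 and 2.02, a log2 fold change of 5.03 ± 0.66 (edgeR adjusted p = 0.00233). Pink1, the kinase that marks damaged mitochondria, was at 28.5 and 28.1 CPM versus 271 and 427, which gave a log2 difference of -3.62 ± 0.45 (edgeR adjusted p = 0.00174). Fkbp8, a further outer membrane receptor, had a log2 fold change of -1.65 ± 0.37, and Fundc1, with -2.01 ± 0.63, was called lower by DESeq2 alone (adjusted p = 0.00678). Scaled to library size alone Fkbp8 was at 0.21, while Bnip3 stood at 6.79 and Pink1 at -1.72.

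Of the mtDNA genes 9 of 11 had a log2 fold change above 0, with a median of 1.35, beside 49.5% and -0.02 for all genes. EdgeR called 2 of the 11 higher, beside 12% of all genes: Twnk, the mtDNA helicase, at 35.5 and 51.0 CPM against 6.29 and 0.62 (3.64 ± 0.99), and Top1mt, the mitochondrial topoisomerase, at 20.8 and 32.9 against 6.77 and 5.66 (2.11 ± 0.57). DESeq2 called 4 of the 11 higher and 0 lower, beside 14.6% and 19.5% of all genes. It added the rRNA methyltransferase Tfb1m (log2 fold change 1.72) and the protease Lonp1 (3.07). Outside the mtDNA genes, DESeq2 also added the prohibitin Phb (1.91) of the inner membrane set. The same holds for Pprc1 of the nuclear regulators, a coactivator related to PGC-1α (2.67). Lonp1 stood at 38.2 CPM in flox/+ library a and 1.63 in library b, and Pprc1 at 35.2 and 4.11. The 2 flox/+ libraries were thus far apart in both, as they were in Twnk, which edgeR called. Mtfr2, a fission regulator, had 0 reads in both flox/+ libraries and 1.87 and 3.56 CPM in the line. With a floor of 3 counts over the flox/+ group in place of 0, it was 24.1-fold higher in the line.

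Leaving out 1 of the 4 libraries kept the calls of Bnip3 and Pink1 each time and ended others. Without empty vector library 1, the edgeR adjusted p was 0.142 for Mtfr2, 0.0673 for Phb2, 0.124 for Stoml2, 0.0953 for Fkbp8, 0.0980 for Twnk and 0.0914 for Top1mt. Without empty vector library 2 it was 0.237 for Mtfr2, 0.0978 for Fkbp8, 0.114 for Twnk and 0.209 for Top1mt. Without flox/+ library a it was 0.0663 for Stoml2 and 0.0526 for Fkbp8. Without library b it was 0.0538 for Mtfr2, 0.0596 for Phb2, 0.0741 for Stoml2 and 0.0794 for Top1mt.

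**Figure D4:**
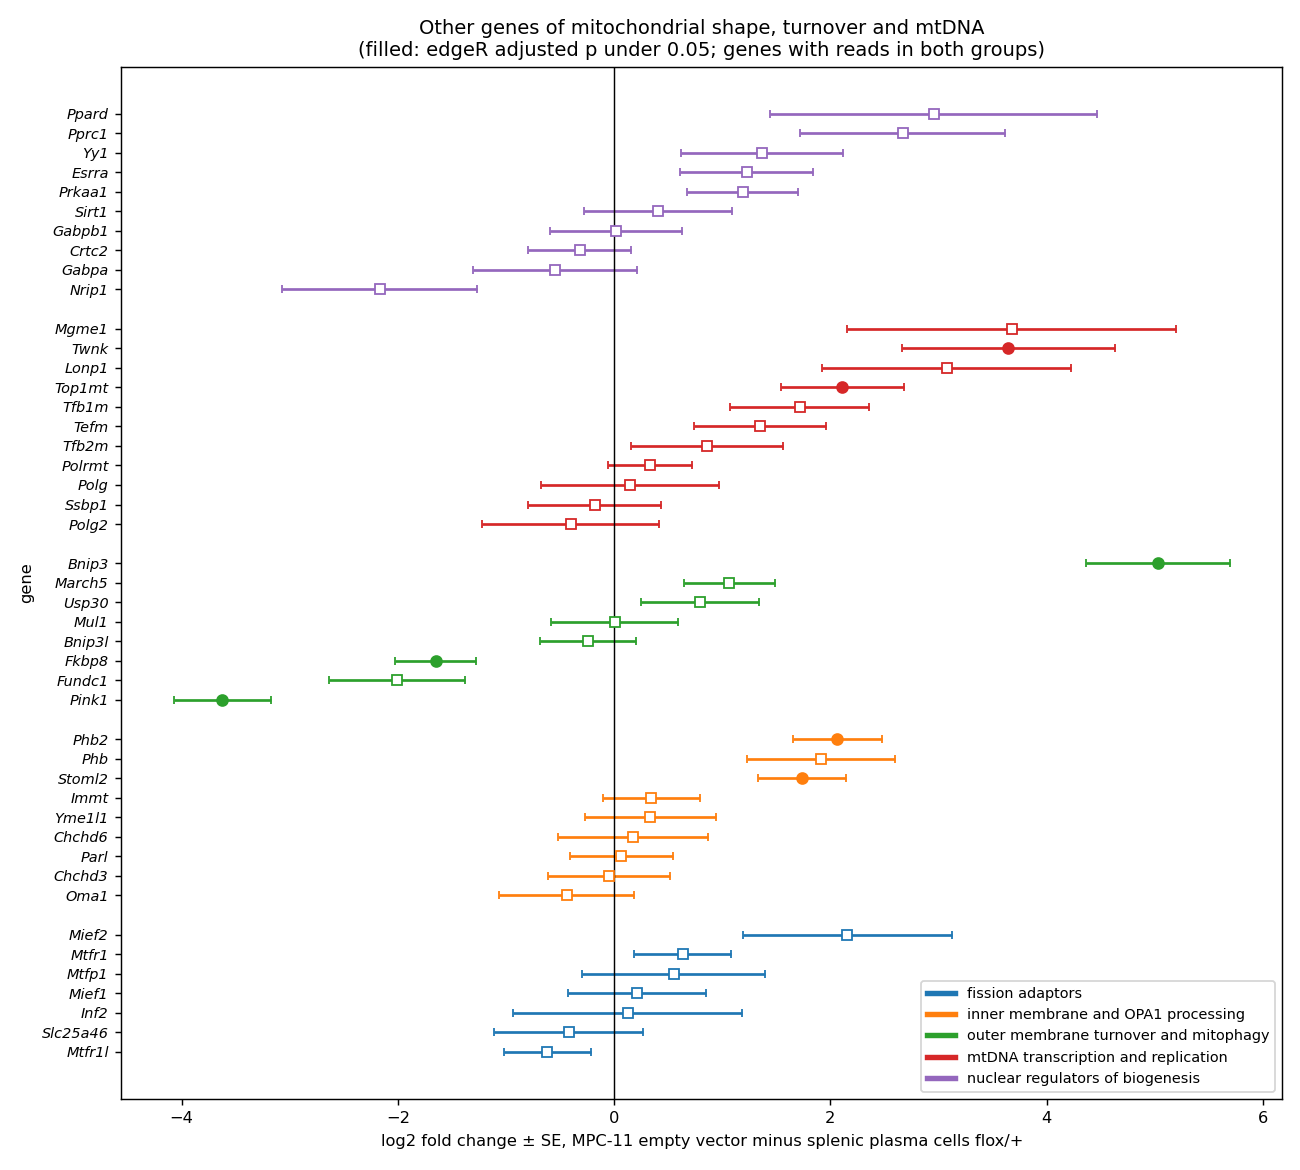
Log2 fold change with its standard error for the 45 further genes with reads in both groups, MPC-11 with the empty vector over flox/+ splenic plasma cells, coloured by process; filled circles passed edgeR and open squares did not. The 7 filled points are Bnip3, Twnk, Top1mt, Phb2 and Stoml2 to the right and Fkbp8 and Pink1 to the left.

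Between the Irf4 genotypes of the spleen and with the guide RNA in both lines, the same 50 genes gave no edgeR call. In the spleen 46 were tested, 19 above 0 and 27 below, beside 54.3% of all genes above 0, with a median of -0.16 beside 0.09. DESeq2 called none of them, and 3.64% of all genes higher and 1.70% lower. The 3 with the smallest unadjusted p were Mtfr1 (log2 fold change -0.82 ± 0.39), the actin-nucleating formin Inf2 (1.58 ± 0.77) and Ppard (3.18 ± 1.71, at or below 1.14 CPM in all 4 libraries). In MPC-11 47 were tested, 19 above 0 and 28 below, beside 48.5% of all genes above 0, again with no call by either tool. Chchd6, a cristae subunit, had a log2 fold change of -1.31 ± 0.56, the protease Yme1l1 of -0.78 ± 0.43 and Polrmt, the mitochondrial RNA polymerase, of 0.68 ± 0.35.

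In MM.1S DESeq2 called 2 of 49 tested, 1 in each direction, a share near the 1.54% of all genes called higher and 1.41% called lower. TOP1MT stood at 59.7 and 65.4 CPM with the guide against 30.4 and 35.8, a log2 fold change of 0.92 ± 0.24 (DESeq2 adjusted p = 0.0424, edgeR adjusted p = 0.310). INF2 was at 1.34 and 0.693 CPM versus 6.53 and 6.84, which gave a log2 difference of -2.71 ± 0.71 (DESeq2 adjusted p = 0.0416, edgeR adjusted p = 0.312). MTFP1, which promotes fission from the inner membrane, was at 41.8 and 34.6 CPM versus 67.9 and 66.5 (-0.81 ± 0.23) and passed neither test.

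Replicate libraries of the mouse differed with exonic length over all genes, which the members did not follow throughout. The log2 ratio of flox/+ library a to b had a median of -0.37 in the 1 of 4 equal bins with the shortest exonic length and 0.55 in the bin with the longest. Empty vector library 1 over 2 in MPC-11 had 0.43 and -0.50. Relative to the median gene, the ratio of flox/+ library a to b was 2.40 for Mfn1, 1.40 for Dnm1l and 1.17 for Mfn2, but -0.52 for Fis1 and -0.50 for Mff. For empty vector library 1 over 2 it was -1.42, -1.25 and -0.78 for the first 3 genes and 0.89 and 0.70 for Fis1 and Mff. Fis1 is the shortest of the 10 with 1.71 kb of exonic sequence, and Mfn1, Dnm1l and Mfn2 have 6.11, 5.20 and 5.19 kb. Mff went with Fis1 although its exonic sequence over all isoforms is 9.76 kb, and Opa1 with 7.88 kb stayed within 0.06 of 0 in all 4 pairs. Nrf1, the longest of the genes tested with 10.28 kb, had a ratio of 0.74 in the flox/+ pair and, on the side of Fis1, of 0.87 in the empty vector pair. Tfam with 4.44 kb had -0.78 and -0.28. The part of length in the comparisons above was not tested.

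**Figure D5:**
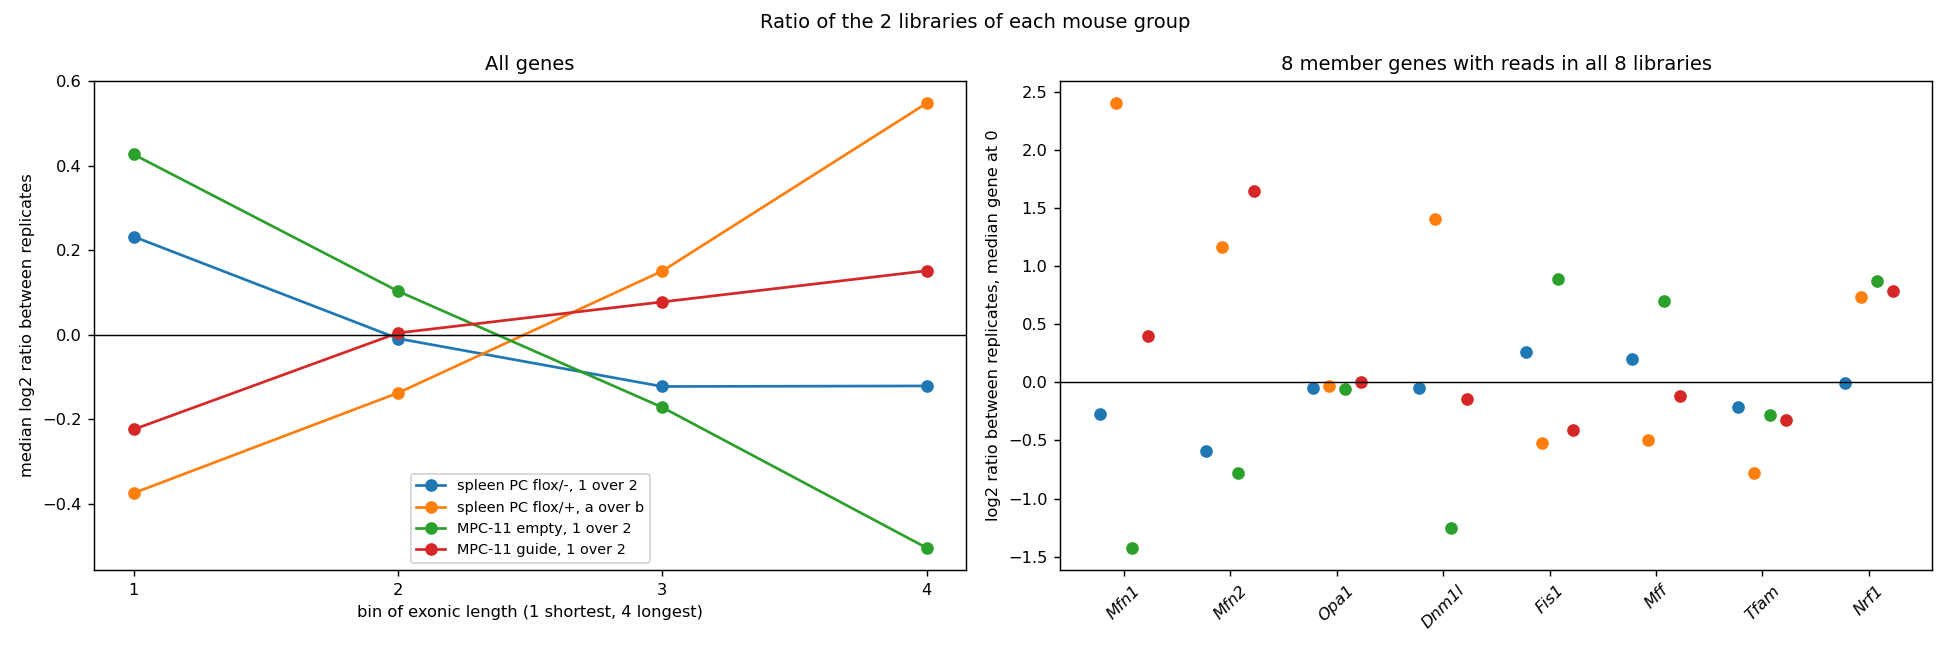
Left, median log2 ratio between the 2 libraries of each mouse group in 4 bins of exonic length from shortest (1) to longest (4), over all genes. Right, the same ratio for the 8 genes with reads in all 8 libraries, with the median gene at 0; colours mark the same pairs. Mfn1, Mfn2 and Dnm1l lie on the other side of 0 from Fis1 and Mff in the flox/+ and MPC-11 empty vector pairs, while Opa1 lies at 0.

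The members' spread between replicates was wider than that of the other genes in those 2 groups. The median absolute log2 ratio over the 9 genes was 0.73 in flox/+ and 0.75 in MPC-11 with the empty vector, against 0.55 and 0.53 over all genes tested. It was 0.18 in flox/- and 0.39 in MPC-11 with the guide, against 0.41 and 0.41. In MM.1S it was 0.33 without and 0.15 with the guide, against 0.41 and 0.27.

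Genes with the most similar pattern over the 10 mouse libraries were found among 7388 genes with a mean of at least 10 CPM, by Pearson's r of log2(CPM + 1). Libraries of a group share their cell type, so these values describe likeness in this set only. Opa1 was most like Ppan (r = 0.989) and Hdgf (0.989), and Mfn1 most like Sos1 (0.973) and Phf3 (0.967). Mfn2 was nearest to Gak (0.954) and Srcap (0.951), and Dnm1l to Dot1l (0.914) and Vps13b (0.903). Fis1 was nearest to Fbxo8 (0.973) and Timm17b (0.965), and Mff to Ndufs4 (0.939) and A430005L14Rik (0.925). For the biogenesis genes the nearest were Entpd5 (0.906) and Usp4 (0.890) for Tfam, Uck1 (0.971) for Nrf1, and Rhbdf1 (0.971) and Fam91a1 (0.969) for Ppargc1b.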

How the data were processed

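The authors deposited, for mouse and human separately, counts of whole reads per gene, which are not normalized, and a table of log2 FPKM values per library, fragments scaled to gene length and depth, for 14704 mouse and 12731 human genes; its offset and any further normalization are not given in the sources used here. Subread 1.6.0, featureCounts, limma and the builds mm10 and hg38 are named, per the submitters' processing notes. Per the labels, cDNA libraries were prepared from mRNA with a transposase kit. Entries without a symbol (958 and 450; at most 0.306% of a library) were left out. Groups followed the labels. Each comparison was fitted on the counts of its own 4 libraries with edgeR 4.0.16 (quasi-likelihood test, TMM, filterByExpr with a minimum count of 10) in R 4.3.3, with Benjamini-Hochberg adjustment over all genes tested and a threshold of 0.05; the SE is the log2 fold change over the root of F. Ppargc1a did not pass the filter in the mouse comparisons. DESeq2 1.42.0 and limma 3.58.1 on the deposited log2 FPKM values were alternatives, besides library size scaling, no immunoglobulin genes, no filter, a shared spread, a replicate block and leaving out each library. The fits were checked on simulated data, in which the changes were larger than the fitted change of any member. The check therefore does not cover changes of the members' size. Counts differed between replicates by more than counting error in every pair, and intervals cover counting error only. Mouse positions are from the GENCODE annotation of mm10; no human positions were used here. All 10 members are named, and of the 50 further genes those passing edgeR or DESeq2 in a comparison or, with fewer than 3, the 3 with the smallest unadjusted p; Lonp1, Pprc1, Phb, Tfb1m and Fundc1 passed DESeq2 alone. Members and lists were chosen with earlier results of these data known. A second gene like Nrf1 in pattern is not reported here.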

Additional observations from a re-analysis of the deposited data

How the results depend on the processing

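Of the 5 counts of members called, those within spleen, MPC-11 and MM.1S and for their difference were 0 under every alternative run. For MPC-11 over flox/+ spleen the count went from 0 to 4 with library size scaling, under which the median log2 fold change of all genes was 1.86. It went to 1 with DESeq2 and to 1 with a shared spread. Deviations of same-numbered libraries correlated with r of -0.14 in MPC-11, 0.17 in MM.1S and -0.01 in spleen. With 2 pairs each and no label tying equal numbers, the numbers were not taken to pair the libraries. With the replicate block, 0 members were called in each comparison; all genes called went from 2 to 0 in MPC-11, from 1 to 208 in MM.1S and from 0 to 384 in spleen (limma). With the MPC-11 numbers crossed, an alternative chosen after seeing the data, it was 1.

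Direction was kept under all settings by 2 of 9 genes in spleen and 0 of 9 in MPC-11. It was kept by 3 of 10 in MM.1S and 4 of 9 in MPC-11 over spleen. Library size scaling, which moves the median of all genes, was the only setting that turned Fis1 and Mff in spleen and Opa1 in MPC-11. The same holds for Mfn2 and Fis1 in MPC-11 over spleen. For the other genes that turned, the cause was not tested. Library size scaling turned the log2 fold change in spleen to 0.55 for Mfn1, 0.50 for Fis1, 0.61 for Mff and 0.10 for Mtfr1, in MPC-11 to -0.17 for Mfn2, -0.13 for Opa1 and -0.16 for Tfam, in MM.1S to 0.00704 for NRF1, and in MPC-11 over spleen to 0.93 for Mfn2, 1.35 for Fis1, 1.70 for Mff, 1.44 for Nrf1 and 0.21 for Fkbp8. On log2 FPKM, Tfam turned to -0.0935 in spleen, with and without the block, and to -0.000985 in MPC-11. Mfn2 in MPC-11 turned to -0.14 on log2 FPKM, -0.13 with the replicate block and -0.13 with it crossed.

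Leaving out each library gave ranges that cross 0. In spleen they were -1.07 to 1.39 for Mfn1, -0.46 to 0.74 for Mfn2, -0.36 to 1.08 for Dnm1l, -0.28 to 0.47 for Tfam and -0.69 to 9.79 for Ppargc1b. In MPC-11 they were -0.95 to 0.49 for Mfn1, -1.02 to 0.65 for Mfn2, -0.64 to 0.62 for Dnm1l, -0.62 to 0.26 for Fis1, -0.38 to 0.31 for Mff, -0.14 to 0.18 for Tfam, -0.48 to 0.47 for Nrf1 and -0.40 to 0.0038 for Ppargc1b. In MM.1S they were -0.27 to 0.41 for MFN1, -0.22 to 0.25 for OPA1, -0.0739 to 0.34 for DNM1L, -0.42 to 0.17 for MFF, -0.30 to 0.0728 for TFAM, -0.20 to 0.18 for NRF1 and -1.16 to 0.61 for PPARGC1A. In MPC-11 over spleen they were -0.19 to 1.33 for Dnm1l, -0.53 to 0.23 for Mff and -0.85 to 0.0763 for Nrf1.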
